A study of Mus musculus with 12 samples.

Results

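The genes described here are the integrin receptor chains and the laminin chains of mouse skeletal muscle. They were chosen by name, as the symbols that begin with Itga, Itgb, Lama, Lamb or Lamc followed by a digit, and they number 35 of the 23923 genes in the expression files. Among them are 12 integrin alpha chains, 9 integrin beta chains and 11 laminin chains, of which 5 are alpha, 3 are beta and 3 are gamma chains. The other 3, Itgb1bp1, Itgb1bp2 and Itgb3bp, match by name only and encode binding proteins that are not integrin chains.

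Integrins are membrane receptors made of an alpha and a beta chain, which hold the extracellular matrix on the outside of a cell and the actin cytoskeleton on the inside. Laminins are trimers of an alpha, a beta and a gamma chain that form the mesh of the basement membrane around each muscle fiber. In adult muscle the receptor built from Itga7 and Itgb1, beside dystroglycan, binds laminin built around the Lama2 chain, and loss of Lama2 causes a congenital muscular dystrophy in mice and humans.

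RNA was sequenced from the tibialis anterior, a fast-twitch hindlimb muscle, of 12 mice aged 6 weeks and of strain C57BL6/J;129S1/SvImJ, with 1 library per mouse. The paper states that, after its comparison of males and females, it used male tissue alone. The 6 controls had the genotype Myf6 cre/+; Smyd1 flox/+ and the 6 conditional knockouts (CKOs) had the genotype Myf6 cre/+; Smyd1 flox/-, and the methods give a Rosa26 YFP reporter allele to the animals of both groups. Smyd1 encodes a muscle-specific lysine methyltransferase, and the comparison asks how its loss from formed fibers changed muscle transcripts. Cre made from the Myf6 locus acts in muscle fibers from around birth. Both groups therefore carried cre, control fibers kept a working Smyd1 allele, and the other cells of CKO muscle kept their floxed allele beside a null allele. All values are FPKM, sequenced fragments corrected for transcript length and library size, a scale on which levels of different genes can be set side by side. Because whole muscle was sequenced, fewer cells of a type and less RNA per cell cannot be told apart.

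Smyd1 itself was at 32.9 to 47.1 FPKM in controls and at 27.8 to 39.9 FPKM in CKOs, so the groups overlapped. Its log2 fold change was -0.13 as deposited (adjusted P = 0.545) and -0.32 after median-ratio scaling (adjusted P = 0.0797). This value sums the whole gene and does not resolve the deleted segment, so it does not check the labels, and the groups are named as labelled. The 6 myofiber markers, among them Ckm and Acta1, summed to 16020 to 25185 FPKM in controls and to 17954 to 22752 FPKM in CKOs, although single members differed in direction. Control 1 had the highest control sum, and the other controls reached at most 21795 FPKM. The median log2 fold change of these markers was -0.27 as deposited and -0.46 after scaling. Control 1 stood apart from the other controls. Its 6 fibroblast markers summed to 714 FPKM, against 184 to 236 FPKM in the other controls and 253 to 422 FPKM in CKOs, and its 6 macrophage markers summed to 41.4 FPKM, against at most 18.8 FPKM in the other controls. As deposited, it was the highest control for 19 of the 31 integrin and laminin genes tested (61.3%) and for 44.7% of all genes tested. After median-ratio scaling it was the highest control for 14 of the 31 (45.2%) and for 26.0% of all genes tested. Values are therefore given with and without it. They are also given after median-ratio scaling, because 77.9% of all tested genes had a positive log2 fold change in the FPKM as deposited, with a median of 0.18, and 51.2% had one after scaling, with a median of 0.01.

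Of the 35 genes, 31 reached 0.1 FPKM in at least 6 of the 12 samples and were tested, and none of them passed this filter through the values of 1 group alone. Lamc3 passed it mainly through CKO values, because control 3 was its only control at 0.1 FPKM or more (0.124 FPKM). Itga7, Itgb1, Itgb6 and Lamb2, 4 of the 31, rose in CKOs at an adjusted P below 0.05. Over all 12695 genes tested, the share called higher in this way was 2.02%. None of the 31 was called lower, against 0.268% of all genes. These adjusted P are limma's with the Benjamini-Hochberg method over all genes tested. After median-ratio scaling the same 4 genes were called, against 0.764% of all genes called higher and 0.709% called lower.

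At an unadjusted P below 0.05, 10 of the 31 were higher and none lower, against 18.1% and 1.76% of all genes. The 10 comprised 6 integrin chains (Itga3, Itga7, Itga9, Itga11, Itgb1 and Itgb6) and 4 laminin chains (Lama2, Lama3, Lamb2 and Lamc1). After scaling 7 remained higher, Itga3, Itga7, Itga9, Itgb1, Itgb6, Lama2 and Lamb2, against 6.62% of all genes, and none was lower, against 7.44%. The 4 genes with an adjusted P below 0.05 were all among the 15 with a mean of at least 1 FPKM over the 12 samples, and 2.67% of all genes at that level were called higher.

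Fold changes of the 31 ranged from -0.33 for Itga10 to 1.03 for Itga7 on the log2(FPKM + 0.1) scale, which understates changes of genes near 0.1 FPKM. Their median was 0.35, above 0.18 for all tested genes, and after scaling it was 0.19, against 0.01. Of the 31, 27 were positive as deposited (87.1%) and 24 after scaling (77.4%), against 77.9% and 51.2% of all tested genes. All 9 tested laminin chains were positive as deposited, with a median of 0.39, and 8 of 9 after scaling, with Lama4 at -0.04. The 9 include Lamc3, which passed the filter mainly through CKO values. Among the 19 tested integrin chains 15 were positive as deposited (78.9%), close to the share of all genes, and 14 after scaling (73.7%).

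**Figure D1:**
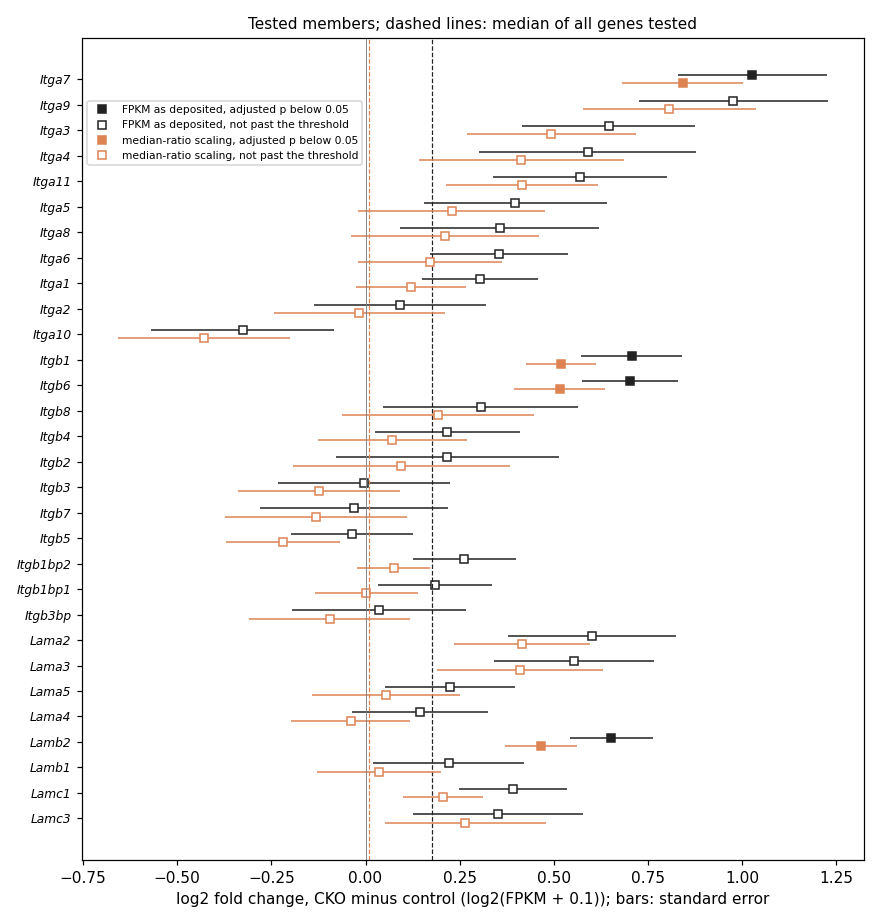
Log2 fold change of 30 of the tested integrin, integrin-binding and laminin genes, CKO minus control, on the log2(FPKM + 0.1) scale, with bars for the standard error. Black squares are FPKM as deposited and orange squares are values after median-ratio scaling, filled where the adjusted P was below 0.05, and dashed lines give the median of all genes tested. Only Itga7, Itgb1, Itgb6 and Lamb2 are filled, on both scales.

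Itga7 encodes the main laminin-binding alpha chain of adult muscle fibers. Its 6 controls had 6.81, 3.998, 5.76, 3.86, 3.27 and 3.77 FPKM (controls 1 to 6), and its 6 CKOs had 11.8, 7.23, 11.3, 7.42, 6.88 and 11.6 FPKM (CKOs 1 to 6). Every CKO lay above every control, and CKOs 1, 3 and 6 lay well above the other CKOs. The means were 4.58 ± 1.39 FPKM in controls and 9.38 ± 2.43 FPKM in CKOs (SD, n = 6 each), a log2 fold change of 1.03 (SE 0.20, adjusted P = 0.0149). It was 0.84 after scaling (adjusted P = 0.0181) and 1.15 without control 1 (adjusted P = 0.00283).

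Itgb1, the beta chain shared by most matrix-binding integrins, had the highest level of the 35 genes in controls. Control values were 51.4, 30.9, 40.7, 32.4, 34.9 and 32.1 FPKM, and CKO values were 68.8, 54.95, 54.3, 51.4, 58.5 and 72.1 FPKM. The groups did not overlap, although control 1 and CKO 4 were nearly equal, and after scaling the gap was wider, at 46.1 FPKM for the highest control and 49.6 FPKM for the lowest CKO. The means were 37.0 ± 7.87 FPKM in controls and 60.0 ± 8.46 FPKM in CKOs, a log2 fold change of 0.71 (SE 0.13, adjusted P = 0.0133). Scaling gave 0.52 (adjusted P = 0.0118) and leaving out control 1 gave 0.81 (adjusted P = 0.00146).

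Itgb6 encodes a beta chain that pairs with the product of Itgav and is best known from epithelia, where the receptor activates latent TGF-beta. Its control values were 6.88, 6.31, 5.33, 6.17, 6.04 and 5.79 FPKM, and its CKO values were 12.2, 7.60, 10.5, 10.8, 7.86 and 11.5 FPKM. All 6 CKOs exceeded all controls, with CKOs 2 and 5 closest to them. The means were 6.09 ± 0.518 and 10.1 ± 1.93 FPKM (log2 fold change 0.70, SE 0.13, adjusted P = 0.0108). After scaling the difference was 0.52 (adjusted P = 0.0479), with 5 of 6 CKOs above all controls, and after scaling without control 1 it was 0.51 with an adjusted P of 0.0507. The 4 epithelial markers, Krt5, Krt14, Epcam and Cdh1, summed to at most 0.0800 FPKM in any control and 0.167 FPKM in any CKO, and none reached the filter.

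Lamb2 encodes the laminin beta chain that is concentrated at the neuromuscular and myotendinous junctions of muscle. Control values were 10.5, 8.35, 9.87, 10.1, 9.13 and 9.12 FPKM, and CKO values were 16.5, 12.8, 18.1, 15.4, 12.1 and 15.8 FPKM. The groups did not overlap, with CKOs 2 and 5 again the lowest CKOs. The means were 9.52 ± 0.788 and 15.1 ± 2.28 FPKM (log2 fold change 0.65, SE 0.11, adjusted P = 0.00733). The difference was 0.47 after scaling (adjusted P = 0.0259) and 0.68 without control 1 (adjusted P = 0.00375).

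Counted over all genes, every CKO exceeded every control for 2.23% as deposited and for 0.788% after scaling, and among the 31 genes this held for Itga7, Itgb1, Itgb6 and Lamb2 as deposited and for Itga7, Itgb1 and Lamb2 after scaling. Promoters are shown for these genes because they passed the same criterion on the FPKM as deposited. The RefSeq promoter table (GRCm38.p6) matched 23 of the 35 genes, and it holds those of Itgb1, Itgb6 and Lamb2 but has no entry for Itga7. The 250 bases before each start are shown 5′ to 3′ on the gene's strand, with matches to the E-box letters CANNTG, which muscle basic helix-loop-helix factors such as the Myf6 protein bind, in capitals.
Itgb1, chr8:128685404-128685653, plus strand: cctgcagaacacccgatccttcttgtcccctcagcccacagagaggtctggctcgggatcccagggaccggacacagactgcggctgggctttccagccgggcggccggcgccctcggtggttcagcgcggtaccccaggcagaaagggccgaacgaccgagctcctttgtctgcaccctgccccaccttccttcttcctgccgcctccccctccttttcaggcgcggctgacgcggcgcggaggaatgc
Itgb6, chr2:60722604-60722853, minus strand: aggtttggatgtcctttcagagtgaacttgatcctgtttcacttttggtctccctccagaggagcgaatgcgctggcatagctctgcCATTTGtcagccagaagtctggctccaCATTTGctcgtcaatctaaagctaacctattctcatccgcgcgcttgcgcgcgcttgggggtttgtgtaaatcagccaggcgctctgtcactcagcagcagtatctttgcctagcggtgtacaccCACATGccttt
Lamb2, chr9:108479612-108479861, plus strand: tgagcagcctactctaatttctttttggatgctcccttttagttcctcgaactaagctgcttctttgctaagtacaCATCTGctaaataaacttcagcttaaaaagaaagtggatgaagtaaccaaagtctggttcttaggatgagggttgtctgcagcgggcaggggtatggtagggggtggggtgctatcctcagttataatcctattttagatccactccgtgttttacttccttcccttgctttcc

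The window of Itgb6, the more upstream of its 2 entries, held 3 E-box matches that begin 163, 136 and 11 bases before the start. Lamb2 held 1, 174 bases before the start, and Itgb1 held none. E-box matches occurred in 66.2% of the 32536 distinct promoter windows of this length, so they do not set these genes apart. On both strands, GGGCGG (the GC box) was found once, in Itgb1, against 32.97% of all windows, and TATAAA (the TATA box) in none of the 3, against 12.3% of all windows. The Itgb1 window had a GC content of 68.0%, against 52.0% for Itgb6 and 43.6% for Lamb2. None of these motifs was thus present in all 3 windows, and the E-box was in those of Itgb6 and Lamb2.

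**Figure D2:**
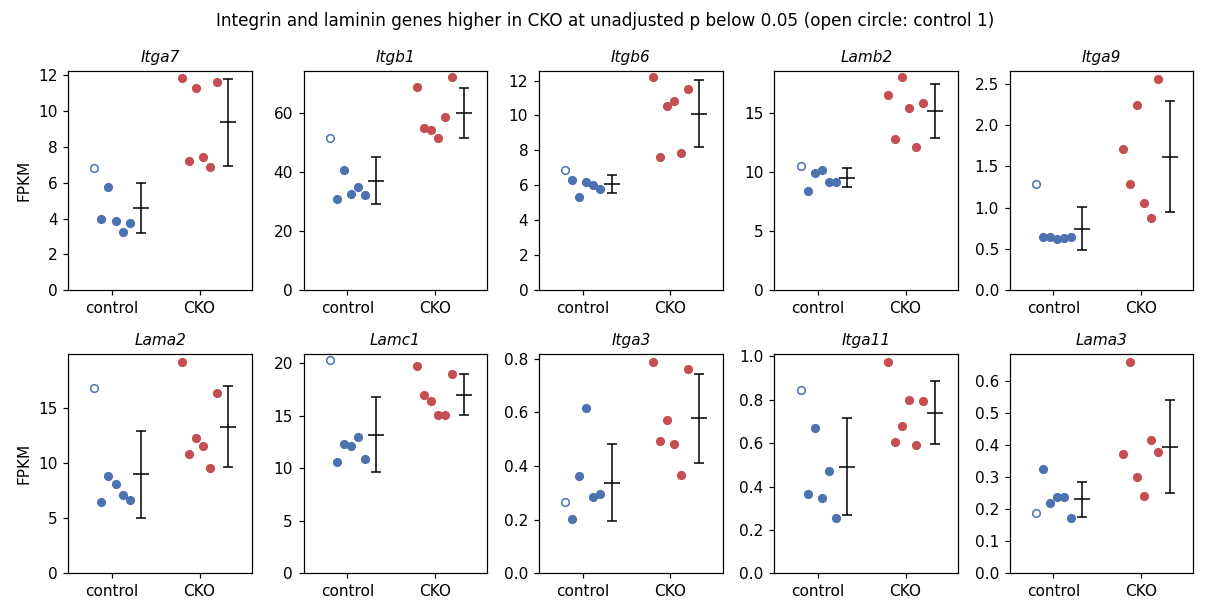
FPKM of the 10 integrin and laminin genes that were higher in CKOs at an unadjusted P below 0.05, with a point for each mouse, an open circle for control 1, and a bar for the mean ± SD of each group. The groups do not overlap for Itga7, Itgb1, Itgb6 and Lamb2, and for Itga9, Lama2 and Lamc1 control 1 alone reaches the CKO range.

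Leaving out control 1 raised the number of these genes called higher at an adjusted P below 0.05 from 4 to 8, adding Itga9, Itga11, Lama2 and Lamc1. The share of all genes called higher rose as well, to 8.4%, and the unadjusted counts were 14 of 31 against 27.0% of all genes. With scaling and without control 1, 5 of the 31 were called (Itga7, Itga9, Itgb1, Lama2 and Lamb2), against 1.42% of all genes, and 8 of 31 at the unadjusted level, against 8.66%. On the FPKM as deposited, every CKO exceeded the remaining 5 controls for 7 of the 31, with Itga9, Lama2 and Lamc1 added, against 6.1% of all genes.

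Itga9 pairs with Itgb1 in a receptor for tenascin-C and VCAM-1. Control 1 had 1.28 FPKM and the other controls had 0.621 to 0.649 FPKM, whereas CKOs ranged from 0.880 to 2.56 FPKM with a median of 1.496 FPKM. Control 1 lay above CKOs 4 and 5 and just below CKO 2. The log2 fold change was 0.98 (SE 0.25, adjusted P = 0.0573), 0.81 after scaling (adjusted P = 0.107) and 1.13 without control 1 (adjusted P = 0.0120).

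Lama2, the laminin alpha chain of the fiber basement membrane, showed the same arrangement. Control 1 had 16.8 FPKM, the other controls had 6.49 to 8.84 FPKM, and CKOs ranged from 9.60 to 19.2 FPKM with a median of 11.9 FPKM. All CKOs lay above controls 2 to 6, but only CKO 1 lay above control 1. With all samples the means were 9.002 ± 3.93 and 13.3 ± 3.69 FPKM (log2 fold change 0.60, SE 0.22, adjusted P = 0.157), and scaling gave 0.42 (adjusted P = 0.316). Without control 1 the control mean was 7.44 ± 1.02 FPKM (n = 5) and the log2 fold change was 0.80 (adjusted P = 0.0114), or 0.57 with scaling as well (adjusted P = 0.0491). The fibroblast markers moved with this result, and 5 of the 6 fibroblast markers were called higher in CKOs once control 1 was left out, against none with it. The share of all genes called higher rose as well, from 2.02% to 8.4%. The part of fibroblasts in the Lama2 difference was not tested.

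Lamc1, the gamma chain of nearly all muscle laminins, had 20.4 FPKM in control 1, 10.6 to 13.02 FPKM in the other controls, and 15.0 to 19.7 FPKM in CKOs. Here control 1 exceeded every CKO, and every CKO exceeded every other control. The log2 fold change was 0.39 (SE 0.14, adjusted P = 0.155), 0.21 after scaling (adjusted P = 0.410), 0.52 without control 1 (adjusted P = 0.00757), and 0.29 with both (adjusted P = 0.0799).

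The remaining genes with an unadjusted P below 0.05 were expressed below 1 FPKM. Itga3, a laminin-binding alpha chain of epithelia and vessels, was at 0.338 ± 0.145 FPKM in controls (0.204 to 0.615, median 0.291) and at 0.577 ± 0.166 FPKM in CKOs (0.368 to 0.787, median 0.533), with a log2 fold change of 0.65 (adjusted P = 0.144). Its groups overlapped, with control 4 the highest control. Itga11, a collagen-binding alpha chain of fibroblasts, was at 0.256 to 0.843 FPKM in controls (median 0.419) and at 0.590 to 0.975 FPKM in CKOs (median 0.736), with a log2 fold change of 0.57 (adjusted P = 0.189) and of 0.72 without control 1 (adjusted P = 0.0468). Lama3, an alpha chain of epithelial basement membranes, was at 0.174 to 0.327 FPKM in controls (median 0.229) and at 0.243 to 0.662 FPKM in CKOs (median 0.377), with a log2 fold change of 0.55 (adjusted P = 0.168). Both overlapped between groups.

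Of the other alpha chains that bind laminin or collagen, Itga1 was at 2.47 to 4.06 FPKM in controls and 3.21 to 5.19 FPKM in CKOs (log2 fold change 0.30, adjusted P = 0.281). Itga6, the partner of Itgb1 or Itgb4 in laminin receptors of vessels and satellite cells, was at 2.30 to 4.77 FPKM in controls and 2.91 to 5.40 FPKM in CKOs (0.35, adjusted P = 0.292). Itga2 and Itga10, the other collagen-binding chains, had means below 0.2 FPKM in both groups, and Itga10 had the lowest fold change of all (-0.33, adjusted P = 0.457). For none of these 4 genes did the groups separate.

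Itga5 encodes the fibronectin receptor chain that embryonic muscle uses before Itga7 becomes the major alpha chain. It was at 0.319 to 0.936 FPKM in controls (median 0.755) and at 0.517 to 1.31 FPKM in CKOs (median 1.03), with a log2 fold change of 0.40 (SE 0.24, adjusted P = 0.369). The groups overlapped, and 4 of 6 CKOs lay above all controls. Itga4, which binds VCAM-1 and fibronectin, had group means of 1.66 and 2.58 FPKM (0.59, adjusted P = 0.267), and Itga8, another fibronectin-binding chain, of 0.399 and 0.493 FPKM (0.36). Neither was called at either level with all samples. Without control 1 the log2 fold changes were 0.66 for Itga4 (adjusted P = 0.162) and 0.57 for Itga8 (adjusted P = 0.0989), both past the unadjusted level.

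Among the beta chains other than Itgb1 and Itgb6, Itgb5, a partner of the Itgav product, was the only gene above 1 FPKM. Its means were 4.84 FPKM in controls and 4.82 FPKM in CKOs (log2 fold change -0.04, adjusted P = 0.923), so the gene did not move with Itgb6. The leukocyte chains Itgb2 and Itgb7, the platelet and vessel chain Itgb3, the epithelial chain Itgb4 and the chain Itgb8 had control means of 0.158 to 0.304 FPKM and CKO means of 0.143 to 0.366 FPKM, and none was called at either level. The genes below the filter were Itga2b, the platelet alpha chain, at 0 to 0.106 FPKM in controls and 0 to 0.124 FPKM in CKOs, and Itgb2l, listed at 0 in all samples but CKO 3, which had 0.0272 FPKM.

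Itgb1bp2 encodes melusin, a striated muscle protein that binds the inner tail of the Itgb1 chain, and it had the second highest level of the 35 genes in controls. Control values were 45.9, 28.7, 38.5, 25.8, 30.0 and 28.0 FPKM, and CKO values were 40.3, 35.2, 42.8, 32.3, 39.6 and 42.1 FPKM. Control 1 was above every CKO, so the groups overlapped. The log2 fold change was 0.26 (SE 0.14, adjusted P = 0.298), 0.07 after scaling (adjusted P = 0.803) and 0.37 without control 1 (adjusted P = 0.0556). Itgb1bp1, which binds the same tail in many cell types, had means of 3.07 and 3.48 FPKM (0.18), and Itgb3bp, a kinetochore and nuclear protein despite its name, of 0.286 and 0.289 FPKM (0.04).

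The relation between 2 genes within a sample does not depend on scaling between samples, apart from the pseudocount. For 6 such ratios the groups were compared by a two-sided exact permutation test over every assignment of samples to groups, whose smallest possible P is 0.00216, with Benjamini-Hochberg adjustment over the 6. The log2 ratio of Itgb1bp2 to Itgb1 was -0.18 ± 0.088 in controls and -0.63 ± 0.16 in CKOs. It was lower in all 6 CKOs than in any control, and the difference was -0.44 (exact permutation test, P = 0.00216, the smallest possible, adjusted P = 0.0130). Without control 1 it was -0.44 as well (exact permutation test, adjusted P = 0.0260).

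The other ratios did not pass the adjusted threshold. Itga7 to Itgb1 was -3.01 ± 0.20 in controls and -2.69 ± 0.29 in CKOs (a difference of 0.32, with P = 0.0541 and an adjusted P of 0.0909 by the exact permutation test), with 4 of 6 CKOs above all controls. Itga5 to Itga7, the embryonic against the adult receptor chain, was -2.54 ± 0.72 in controls and -3.17 ± 0.29 in CKOs (a difference of -0.63, with P = 0.0758 and an adjusted P of 0.0909 by the exact permutation test). Control 3 had the lowest ratio of all samples, at -3.81, whereas the other controls lay between -2.90 and -1.90. Lama4 to Lama2 differed by -0.46 and Lamb2 to Lamb1 by 0.43 (exact permutation test, adjusted P = 0.0909 for both), and Lama5 to Lama2 by -0.38 (exact permutation test, adjusted P = 0.355).

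**Figure D3:**
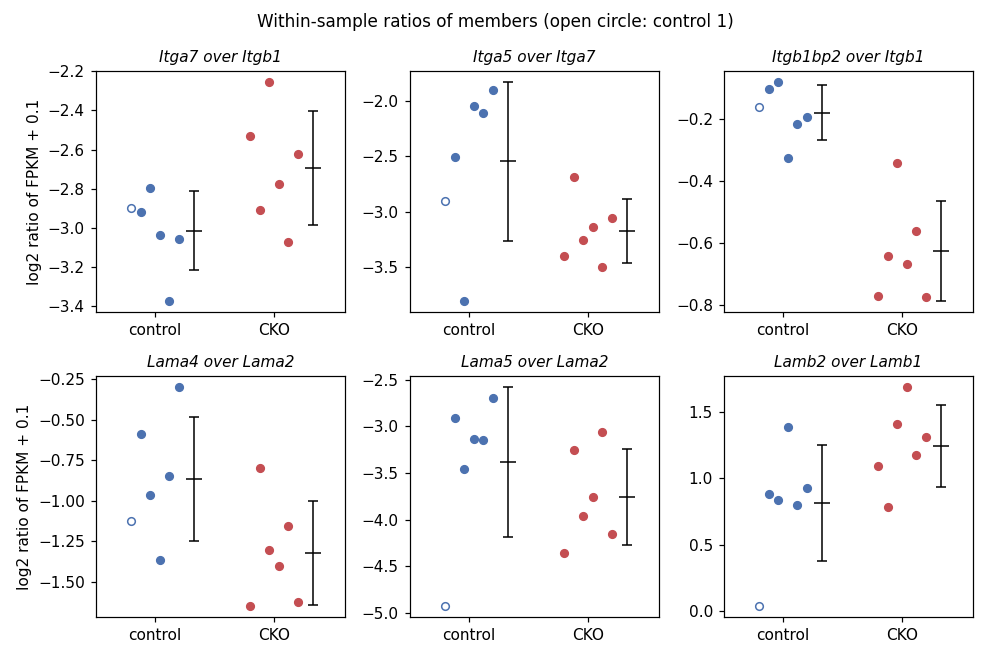
Log2 ratio of FPKM + 0.1 between pairs of genes within each mouse, with an open circle for control 1 and bars for the mean ± SD of each group. For Itgb1bp2 over Itgb1 all CKOs lie below all controls, and in the other 5 panels the groups overlap.

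The remaining laminin chains were compared with Lama2, Lamb2 and Lamc1. Lama4, a chain of vessel and synaptic basement membranes, was at 3.10 to 7.65 FPKM in controls (median 4.38) and at 4.26 to 6.18 FPKM in CKOs (median 5.07), a log2 fold change of 0.14 (SE 0.18, adjusted P = 0.677). Lama5, found at the same sites, was at 0.455 to 0.939 FPKM in controls (median 0.745) and at 0.694 to 1.07 FPKM in CKOs (median 0.833), a log2 fold change of 0.22 (SE 0.17, adjusted P = 0.472). Lamb1, the beta chain along the length of the fiber, was at 3.81 to 10.2 FPKM in controls (median 4.98) and at 4.72 to 7.68 FPKM in CKOs (median 6.52), a log2 fold change of 0.22 (SE 0.20, adjusted P = 0.547). Without control 1 the log2 fold change was 0.29 for Lama4 (adjusted P = 0.204), 0.11 for Lama5 (adjusted P = 0.655) and 0.40 for Lamb1 (adjusted P = 0.0797), and only that of Lamb1 passed at the unadjusted level. For all 3 chains the groups overlapped, and control 1 was the highest sample for Lama4 and Lamb1 but the lowest for Lama5.

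Lamc3, a gamma chain of low level in muscle, had means of 0.0735 FPKM in controls and 0.122 FPKM in CKOs (log2 fold change 0.35). It passed the filter mainly through CKO values, with control 3 the only control at 0.1 FPKM or more. Lama1, the embryonic alpha chain, was listed at 0 in 3 controls and 2 CKOs and reached at most 0.0126 FPKM. Lamb3, an epithelial beta chain, was listed at 0 in 2 controls and had group means of 0.0511 and 0.0430 FPKM. Lama1 and Lamb3 were not tested.

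The make-up of each chain class was described by shares of the FPKM summed over the chains chosen by name. Itgav, an alpha chain outside that choice, is not in these sums. Its means of 5.36 FPKM in controls and 9.76 FPKM in CKOs were above those of Itga7. Lama2 made up 59.9% ± 6.45 of laminin alpha chain FPKM in controls and 66.8% ± 5.65 in CKOs, and Lama4 made up 32.8% and 26.5%. Lamb2 made up 63.4% ± 7.11 of beta chain FPKM in controls and 70.2% ± 4.58 in CKOs, with Lamb1 as nearly all of the rest, and Lamc1 made up 98.2% and 97.4% of gamma chain FPKM. Itga7 made up 28.6% ± 4.90 of integrin alpha chain FPKM in controls and 37.4% ± 6.49 in CKOs, and Itgb1 made up 75.2% ± 2.69 and 78.8% ± 3.03 of beta chain FPKM. The share of Itgb5 was 9.99% ± 1.28 in controls and 6.41% ± 1.84 in CKOs. Within the classes so defined the same chains led in both groups, and for each of these shares the ranges of the groups overlapped. The shares were not tested.

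**Figure D4:**
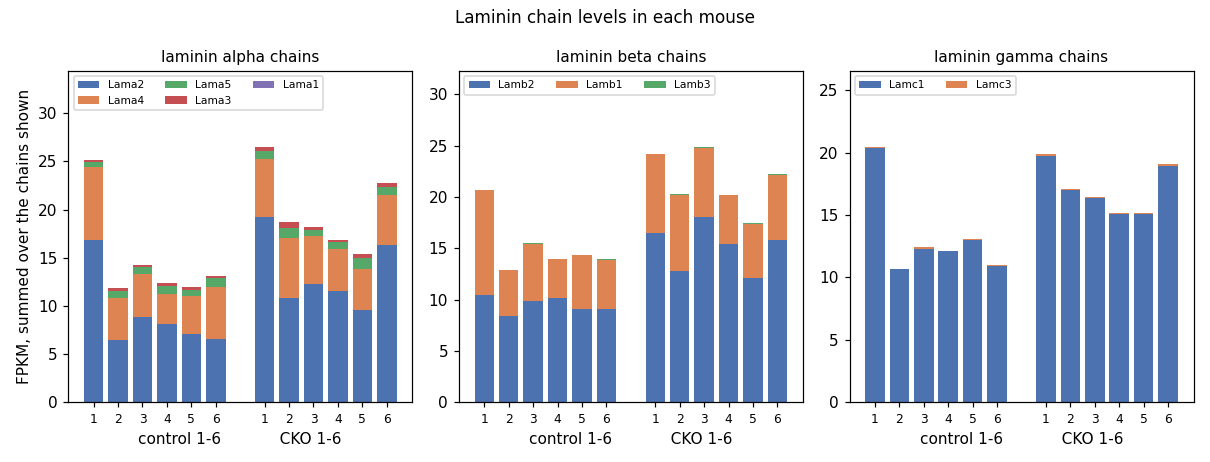
FPKM of the laminin alpha, beta and gamma chains in each of the 12 mice, stacked over the chains shown for each class, so that bar height is their sum. Lama2, Lamb2 and Lamc1 are the largest parts in every mouse, and the bars of control 1 are taller than those of the other controls.

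Genes that work with the integrins and laminins were taken from 4 lists, whose counts stand beside the shares of all genes called higher, 2.02% adjusted and 18.1% unadjusted, or 8.4% and 27.0% without control 1. Of 7 integrin-named genes outside the name rule, 3 were tested and 1 rose. This was Itgav, the alpha chain that pairs with the products of Itgb6 and Itgb5. It was at 4.21 to 6.96 FPKM in controls (median 5.25) and at 8.42 to 11.5 FPKM in CKOs (median 9.39), so that the groups did not overlap. Its log2 fold change was 0.86 (SE 0.12, adjusted P = 0.00265) and 0.68 after scaling (adjusted P = 0.00201). Without control 1 the gene Itgbl1, which encodes an integrin-like protein, was called as well (0.57, adjusted P = 0.0469).

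Of 22 adaptors that tie integrins to actin, among them the talins, kindlins, parvins and Ilk, 20 were tested and 1 rose as deposited, with 2 higher and none lower at the unadjusted level. That 1 was Lims1, which encodes the Ilk partner PINCH, at means of 5.41 ± 1.06 and 10.1 ± 3.10 FPKM (log2 fold change 0.86, adjusted P = 0.0331), and after scaling it was not called (adjusted P = 0.0800). Without control 1, 3 adaptors were called (Lims1, Parva and Src) and 5 were higher at the unadjusted level. The median fold change of the adaptors was 0.17 as deposited and -0.01 after scaling, close to those of all tested genes.

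Of 14 basement membrane partners and other laminin receptors, 13 were tested, 1 rose and 6 were higher at the unadjusted level, with none lower. Bcam, a receptor for laminin that contains the Lama5 chain, was at 1.52 to 2.36 FPKM in controls and 2.74 to 4.55 FPKM in CKOs (log2 fold change 0.68, adjusted P = 0.0270), and the groups did not overlap. Dag1, which encodes dystroglycan, was at 14.5 to 17.7 FPKM in controls and 17.7 to 26.7 FPKM in CKOs (0.39, adjusted P = 0.0831). After scaling none of the 13 was called, with an adjusted P of 0.113 for Bcam and 0.356 for Dag1. Without control 1, 5 were called (Bcam, Dag1, Hspg2, Nid1 and Col4a5), Dag1 at an adjusted P of 0.0426, and 9 were higher at the unadjusted level.

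Of 11 other integrin ligands, all tested, Npnt rose as deposited, and the unadjusted counts were 2 higher and 1 lower. Npnt, which encodes nephronectin, a ligand of the Itga8 receptor, had means of 0.462 ± 0.134 and 1.12 ± 0.499 FPKM (log2 fold change 1.05, adjusted P = 0.0405), and its adjusted P was 0.0692 after scaling. Vcam1, a ligand of the Itga4 and Itga9 receptors, had a log2 fold change of 0.92 (adjusted P = 0.0669) and of 1.15 without control 1 (adjusted P = 0.00296). Thbs1, the thrombospondin gene with the lower value, had means of 2.17 and 1.41 FPKM (-0.59, adjusted P = 0.116). It was called lower without control 1 (-0.68, adjusted P = 0.0374) and with scaling as well (-0.90, adjusted P = 0.0232), and these settings also called Npnt and Vcam1 higher.

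Markers of the other cells of muscle that hold these receptors were measured beside them. None of the marker lists had a gene called at an adjusted P below 0.05 with all samples. At the unadjusted level, 18.1% of all genes were higher and 1.76% lower as deposited, and 6.62% and 7.44% after scaling. The 6 endothelial markers summed to 28.1 to 41.8 FPKM in controls and 28.0 to 46.5 FPKM in CKOs, and the 5 mural cell markers to 47.6 to 83.1 and 51.4 to 71.0 FPKM. The 5 satellite cell markers summed to 3.36 to 6.85 FPKM in controls and 4.81 to 9.92 FPKM in CKOs, and 4 of them (Pax7, Myf5, Calcr and Chodl) were higher at the unadjusted level, 2 after scaling. The 6 Schwann cell markers summed to 4.05 to 9.35 FPKM in controls, control 1 being the lowest, and to 6.68 to 12.9 FPKM in CKOs. Of these 6, 2 were higher at the unadjusted level as deposited and none after scaling. Without control 1, 1 of the 6 was higher, against 27.0% of all genes. The median log2 fold change was then 0.22, both for this list and for all genes. With all samples the 6 fibroblast markers had 2 higher at the unadjusted level (Pdgfra and Lum) and 1 after scaling. Endothelial, mural, tendon, macrophage, platelet, blood and lymphocyte markers had none higher at the unadjusted level with all samples, and 2 of the 5 tendon markers were lower. Of the 6 myofiber markers, Myh4 was higher and Acta1 lower at the unadjusted level as deposited, and Acta1, Tnnt3 and Pvalb were lower after scaling, when the median log2 fold change of the list was -0.46.

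Without control 1, more of the fibroblast and macrophage markers were higher in CKOs, as were more of the integrin and laminin genes. The calls at an adjusted P below 0.05 were then 5 of 6 fibroblast markers, 2 of 5 satellite cell markers (Myf5 at 0.0428 and Chodl at 0.0484) and 1 myofiber marker (Myh4 at 0.0393). For macrophages 5 of 6 markers were higher at the unadjusted level, and none was called. Satellite cells had 3 of 5 markers higher at that level, against 4 with all samples. Of all genes, 8.4% were called higher without control 1, and 27.0% were higher at the unadjusted level. The part of fibroblasts, macrophages and satellite cells in the gain of Itga9, Itga11, Lama2 and Lamc1 was not tested. The part of fibroblasts, satellite cells and Schwann cells in the rise of Itga7, Itgb1, Itgb6 and Lamb2 was not tested.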

How the data were processed

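RNA of whole tibialis anterior from 6 control and 6 CKO mice was sequenced after removal of ribosomal RNA (ScriptSeq Complete Gold). The authors removed adapters, used bowtie2 and tophat for alignment with up to 2 mismatches, kept uniquely mapped reads, and made the deposited FPKM with cufflinks. The submitters' processing notes name TopHat2 2.0.10, Cufflinks 2.1.1 and build mm9, and the annotation is not given in the sources used here. The authors' own test used DESeq on counts, which were not used here.

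Each sample had 23950 rows, of which 27 with a date in place of a symbol were dropped. Depth in reads is unknown, and relative depth, read from the steps between FPKM below 0.15, ran from 0.984 to 1.77 relative to control 1. Groups were compared with limma 3.58.1 (R 4.3.3, trended variance, two-sided) on log2(FPKM + 0.1), requiring 0.1 FPKM or more in 6 or more of the samples, with Benjamini-Hochberg adjustment over the 12695 genes tested. Median-ratio scaling divided each sample by a factor from 12178 genes, 0.855 to 1.11 in controls and 1.03 to 1.15 in CKOs. Ratios used exact permutation tests. The steps were tested on simulated data. Because only uniquely mapped reads were kept, values of close paralogs are uncertain, and changes of total RNA per fiber are not visible on a scale relative to library size. Each library is 1 mouse, so P sets the difference between groups against the spread between mice. That spread cannot be told apart from the spread between libraries.

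A gene of the set is not reported here, and it stays in the fit and the counts. The gene set, the lists and the tests were chosen with earlier results of these data known. Genes named with full values are those past an unadjusted P of 0.05 in either scaling and a fixed set of 10 muscle genes, and up to 4 of the smallest P in each list outside the set. Alternatives were median-ratio scaling or quantile normalization, no filter or one at 1 FPKM, 1 FPKM as pseudocount, no variance trend in limma, a replicate block, omission of each sample, and omission of control 1 with scaling.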

Additional observations from a re-analysis of the deposited data

Results flagged for a closer look

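In 72 groups of 6 samples, 30 tested genes and the 6 ratios in each of control and CKO, the highest or lowest sample was set against the rest by its gap to the nearest other sample divided by the range of the group, and compared with Dixon's critical value. It was exceeded in 8 groups, where chance flags about 1 in 20, and 6 of the 8 concerned control 1. Control 1 was the highest control for Itga9 (0.957 of the range, at 1.28 FPKM), Lama2 (0.772, at 16.8 FPKM), Lamc1 (0.755, at 20.4 FPKM), Lamb1 (0.737, at 10.2 FPKM) and Itga8 (0.649, at 0.864 FPKM). It was the lowest control for the log2 ratio of Lama5 to Lama2 (0.659, at -4.93). The gap was also large for Itga6 in control 6, the highest control (0.682, at 4.77 FPKM), and for Itgb1bp1 in CKO 5, the highest CKO (0.642, at 4.67 FPKM). None of Itga7, Itgb1, Itgb6 and Lamb2 had such a sample.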

How the results depend on the processing

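Itga7, Itgb1 and Lamb2 were called higher under all 20 alternatives, with adjusted P (limma) up to 0.0478, 0.0447 and 0.0297. Itgb6 was called under 19, missing the threshold with scaling and without control 1 (0.51, adjusted P = 0.0507). Of genes not called with all samples, Itga9 passed under 5 alternatives (adjusted P 0.0120 to 0.136 over all 20), Lama2 under 3 (0.0114 to 0.316) and Lamc1 under 1 (0.00757 to 0.410). Of the 31 genes, 4 to 8 were called higher when 1 sample was left out (8 without control 1, 5 without CKO 5 and 4 otherwise), and 9 to 14 at the unadjusted level. Over all genes, 84 to 1067 were called higher and 18 to 69 lower when 1 sample was left out (1067 higher without control 1, 141 or fewer higher without control 2, 4, 5 or 6 or CKO 1, 3 or 6, and 57 lower without CKO 5), and 1738 to 3428 and 196 to 320 at the unadjusted level. Genes called higher fell from 257 to 170 with no filter, 97 with median-ratio scaling and 101 with quantile normalization. At the unadjusted level they fell from 2300 to 841 with median-ratio scaling and 814 with quantile normalization. With scaling and without control 1 they fell to 1100. Genes called lower went from 34 to 90 with median-ratio scaling, 67 with quantile normalization and 182 with scaling and without control 1. At the unadjusted level they went from 224 to 944, 826 and 1146, in the same order. Under quantile normalization 1 of the 31, Itga10, was lower at the unadjusted level.

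The labels do not say whether replicate numbers pair the samples. The correlation of same-numbered deviations ran from -0.0861 to 0.164 and exceeded 0.1 in 2 of 6 pairs. Of 6 samples, 2 correlated best with their own number. Correlations this weak over 6 pairs do not decide whether the samples are paired. With the replicate block 6 of the 31 were called in place of 4, adding Itga9 and Lama2, and 272 genes higher and 40 lower over all genes. Under it the ratio of Itgb1bp2 to Itgb1 was -0.44 with an adjusted P of 0.0625 (exact permutation by sign flips, smallest possible P 0.0312).

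The ratio of Itga5 to Itga7 was -0.70 with a pseudocount of 1 (exact permutation test, adjusted P = 0.0390). Leaving out 1 sample gave -0.88 to -0.50 for this ratio, 0.23 to 0.40 for Itga7 to Itgb1, -0.56 to -0.34 for Lama4 to Lama2 and 0.28 to 0.55 for Lamb2 to Lamb1, and each passed the adjusted threshold when 1 particular sample was left out (control 3, CKO 5, control 4 and control 4).

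Signs turned only for genes that no setting called. Itga2 was -0.0166, -0.0655 and -0.11 (scaling, quantile normalization, and scaling without control 1), Itgb3bp -0.10 and -0.17 (the first 2), Itgb4 -0.0016 and -0.0278 (the last 2), Lama4 -0.0399 and -0.0138 (the first 2), and Lama5 -0.0037 and -0.10 (the last 2). Leaving out 1 sample gave -0.10 to 0.11 for Itgb3, -0.0759 to 0.18 for Itgb3bp, -0.12 to 0.0558 for Itgb5 and -0.14 to 0.0881 for Itgb7. The cause of these changes was not tested. Without counts, the precision of genes below 1 FPKM is not known, and 16 of the 31 tested genes were below it.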
